A study of Mus with 51 samples.

Results

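The Krüppel-like factor (KLF) genes described here are Klf2, Klf3, Klf4, Klf6, Klf7, Klf10 and Klf13, taken by gene symbol from the count table, which makes 7 of its 34923 features. All 7 were found and all 7 passed the filter on low counts. They were followed in lymph node CD4 T cells of the 5C.C7 mouse, whose labels give the strain as B10.A with a deleted Rag2 (Rag2tm1Fwa) and a transgenic T cell receptor (Tcra5CC7, Tcrb5CC7). Every group shares this background: the receptor recognises a moth cytochrome c peptide (MCC), and mice without Rag2 make no B cells or other T cells of their own. NP cells received no peptide, GP cells the GP peptide (not spelled out in the labels, in a series titled for endogenous self-peptides), and MCC and MCC+GP cells the agonist without or with GP. MCC and MCC+GP cells were sorted by CD69, a surface receptor that appears after T cell receptor signalling, into a high (CD69-hi) and a low (CD69-lo) fraction. With collection at 1, 6 and 24 h this gives 18 groups and 51 libraries of poly-adenylated RNA, with 3 libraries in 15 of the groups and 2 in the 6 h groups of NP, GP and MCC CD69-lo. No peptide dose, presenting cell, animal age or sex is given in the labels. Whether replicates are different mice is not stated either, so every p-value measures the spread between these libraries.

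KLF proteins are transcription factors with zinc fingers at the carboxyl end that bind GC-rich and CACCC elements, sites also used by the related Sp factors. KLF2, KLF4, KLF6 and KLF7 carry activation domains, KLF3 recruits the corepressor CtBP, and KLF10 and KLF13 recruit the corepressor Sin3A. In naive T cells KLF2 is known for holding cells in quiescence and for driving the lymph node exit receptor S1pr1. KLF4 is known for restraining proliferation, KLF10 as a gene induced early by TGF-beta, and KLF13 for regulating Ccl5.

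Libraries held 29030 to 10278776 counts (median 5436653). The shallowest were the 3 of MCC+GP CD69-lo at 24 h, with 237390, 29030 and 301455 counts, so values of that group rest on few reads. The 8 T-cell genes of the marker list, Cd3e and Cd4 among them, were present in every group. Their mean sum was 3056 CPM in NP at 1 h, and its lowest value was 1225 in the CD69-lo fraction of MCC+GP at 24 h. In MCC CD69-hi this sum was below NP at each time, with means of 2311, 1354 and 1563 against 3056, 2648 and 3071 CPM, and its part in the KLF differences was not tested. CPM are counts per 1000000 counts of a library. For the KLF genes and the other genes compared they are after TMM scaling. The marker sums and Pecam1 are given without it, here and below, so they are not on the scale of the KLF values. RNA of other cells was present as well: the 12 B-cell genes summed to 186 to 271 CPM in NP at 1 h, 590 to 2328 in MCC CD69-lo and 1205 to 2096 in MCC CD69-hi. The 16 myeloid and dendritic genes summed to 41.4 to 68.7, 59 to 109 and 193 to 331 CPM in the same groups. At 6 h the B-cell genes summed to 366 to 890 CPM in MCC CD69-hi against 144 to 271 in NP. In MCC CD69-hi at 24 h these sums were lower than in NP, at 34.8 to 111 against 152 to 269 CPM for the B-cell genes and 22.5 to 30.1 against 50.9 to 195 for the myeloid and dendritic genes. The 8 genes of CD8 T and NK cells had a mean sum of 22.1 CPM in NP at 1 h but 262 CPM in the MCC+GP CD69-lo group at 24 h. Of the endothelial and stromal list, Pecam1 made up 265.8 of 266.8 CPM in NP at 1 h. In bulk RNA, fewer cells of a type and less RNA per cell cannot be told apart.

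Without peptide, Klf2 was the most abundant member per transcript length. On the length-corrected scale (deposited TPM rescaled to sum to 1000000 per library), Klf2 averaged 751 ± 79.0 in NP at 1 h (SD, n = 3), followed by Klf3 at 373, Klf13 at 316 and Klf6 at 267. The ranges of these last 3 genes overlapped from neighbour to neighbour across libraries. Within each NP library of 1 h, however, the order was the same, with Klf3 above Klf13 and Klf13 above Klf6. Klf7 at 59.4, Klf4 at 18.7 and Klf10 at 5.50 lay below without overlap. By 6 h Klf13 had moved to the second place behind Klf2, at 569 against 675. At 24 h the order in NP was Klf2 (638), Klf13 (534), Klf3 (316), Klf6 (150.01) and Klf7 (39.95), each apart from the next, with Klf10 (2.40) and Klf4 (1.74) overlapping at the bottom.

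NP cells themselves changed between 1 and 6 h, when 3 of 7 members passed the threshold (false discovery rate 0.05) against 16.5% of all genes tested. Klf13 rose from 581, 570 and 451 CPM to 890 and 817 CPM, a log2 change of 0.68 ± 0.17 (SE, adjusted p = 0.00266). Klf4 fell by 1.97 ± 0.62 on the log2 scale (adjusted p = 0.0235), from 23.2, 22.4 and 20.6 CPM to 9.39 and 1.76. Klf7 fell by 0.58 ± 0.20 (adjusted p = 0.043), from 193, 117 and 148 CPM to 96.8 and 108. The Klf4 call was lost in 4 alternatives, with a change of −1.23 without NP 6 h replicate 2 (adjusted p = 0.364). The Klf7 call was lost in 7 alternatives, with an adjusted p of up to 0.414. The 3 calls came down to 1 without NP 1 h replicate 1 or without NP 6 h replicate 2. From 6 to 24 h no member passed in edgeR, where 2.94% of all genes did. Klf4, at −1.62 ± 0.73, was the 1 member with an unadjusted p under 0.05 (adjusted p = 0.337). Over both intervals DESeq2 called 4 members of NP cells and edgeR 3.

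**Figure D1:**
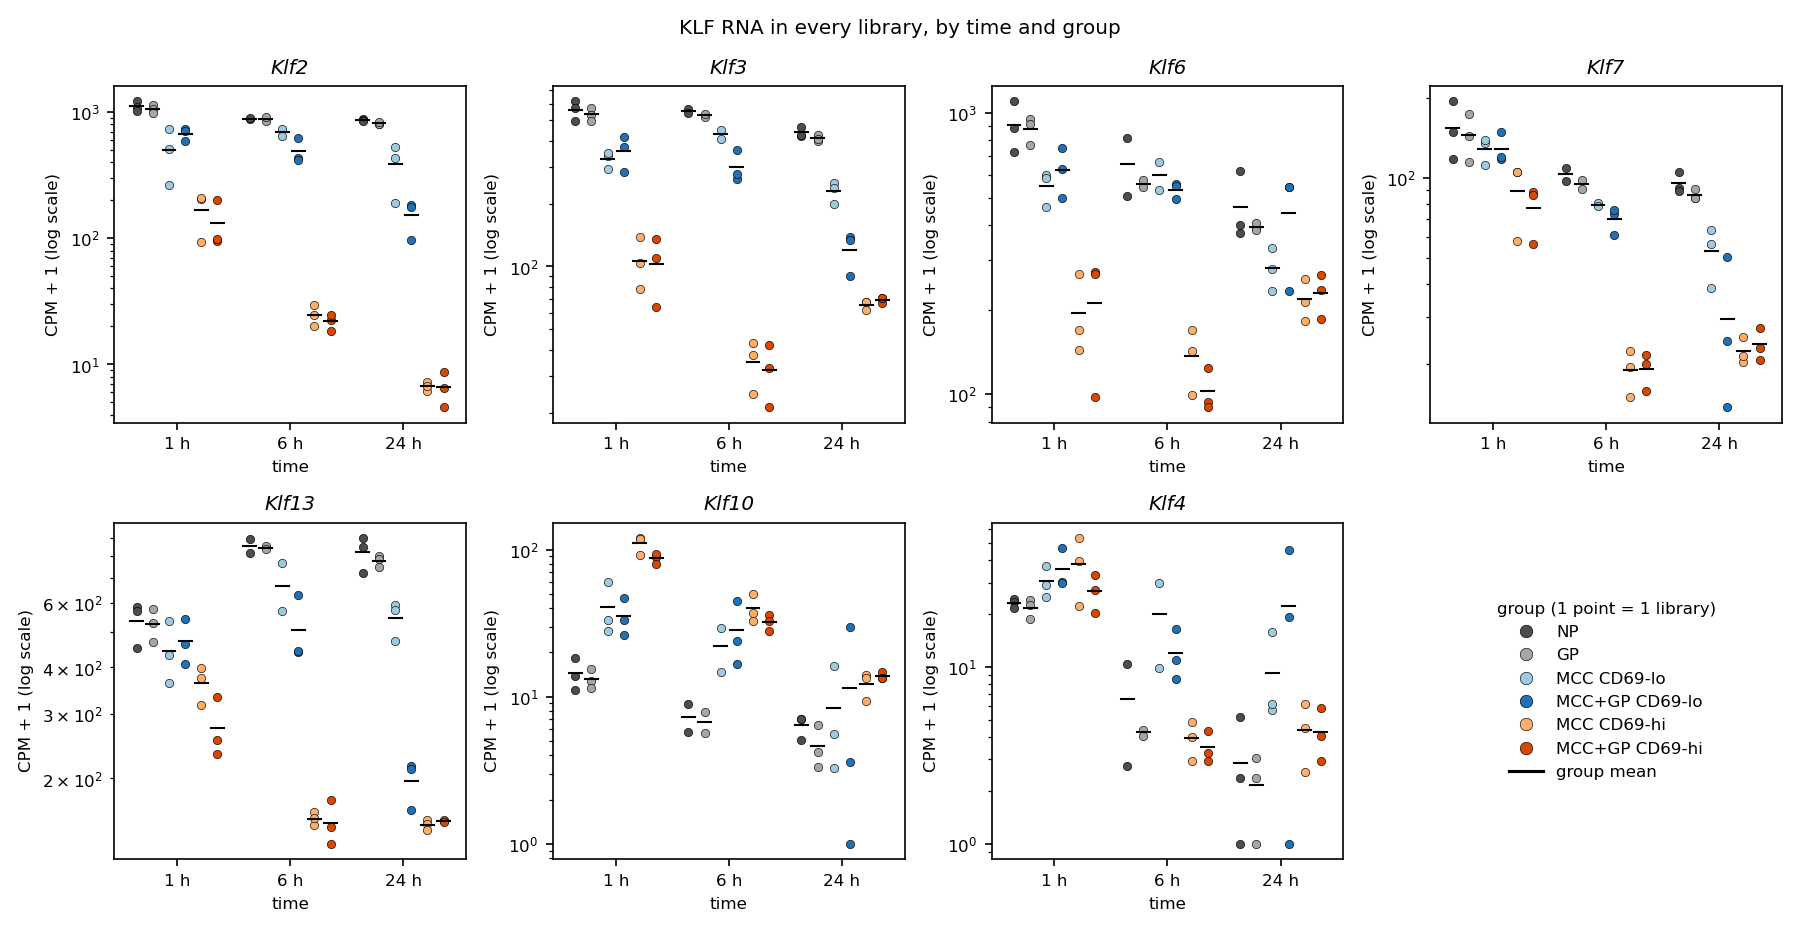
CPM + 1 on a log axis against time (1, 6 and 24 h), with 1 panel for each of the 7 KLF genes, 1 point per library coloured by group, and a horizontal line at the group mean. Klf2 ran from 1217 CPM in an NP library at 1 h to 3.58 in a MCC+GP CD69-hi library at 24 h, while Klf10 was highest in MCC CD69-hi at 1 h.

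The main comparison asked which KLF genes differ between cells that responded to MCC by CD69 and cells without peptide. In MCC CD69-hi against NP, 6 of 7 members passed at each time, always 5 falling and 1 rising: Klf2, Klf3, Klf6, Klf7 and Klf13 were lower, and Klf10 was higher. Among all 17211 genes tested 29.4%, 46.7% and 57.8% passed at 1, 6 and 24 h: 12.4%, 23.2% and 29.2% of all genes rose and 17%, 23.6% and 28.7% fell. The median log2 fold change of the members was −0.74, −2.46 and −2.14 at these times, beside −0.05, 0 and −0.14 over all genes. For every member called, the MCC CD69-hi libraries did not overlap the NP libraries of the same time. The share of all called genes without such overlap was not computed, so this is a description only. Klf4 was not called at any time.

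Klf2 (chr8:72319062-72321654 in mm10, ENSMUSG00000055148), the activator tied to quiescence, had the largest fold of the 7 at 6 and 24 h. NP libraries at 1 h stood at 1217, 1087 and 1028 CPM and MCC CD69-hi libraries at 204, 92.1 and 208. At 6 h the values were 873 and 902 CPM against 23.8, 19 and 28.4, and at 24 h 878, 865 and 851 against 5.21, 6.28 and 5.71. The NP libraries thus lay within a narrow band at 24 h and the MCC CD69-hi libraries rested on 37, 41 and 42 counts. The fold grew from 6.45 to 37.3 and 150.3 (log2 −2.69 ± 0.32, −5.22 ± 0.37 and −7.23 ± 0.40, with adjusted p = 2.35e-08, 8.78e-15 and 7.01e-18). The widening was itself larger than the spread: the 6 h difference minus the 1 h difference was −2.53 ± 0.45 (adjusted p = 2.94e-05), and the 24 h minus the 6 h difference was −2.01 ± 0.50 (adjusted p = 0.00296). These 2 tests of change between times called 29.9% and 22.9% of all genes.

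Klf6 (chr13:5861489-5870393, ENSMUSG00000000078), an activator known as a growth regulator, was 4.62- and 4.83-fold lower at 1 and 6 h and 2.14-fold lower at 24 h. Its NP libraries held 1098, 882 and 725 CPM at 1 h, 810 and 505 at 6 h and 619, 372 and 400 at 24 h. Its MCC CD69-hi libraries held 267, 142 and 169 CPM, then 142, 98.7 and 168, and then 213, 182 and 256. The groups stayed apart at each time, although NP replicate 1 of 6 h and of 24 h lay well above the other NP libraries. The differences were −2.21 ± 0.28, −2.27 ± 0.29 and −1.10 ± 0.27 (adjusted p = 7e-08, 2.02e-08 and 0.000529). The 24 h difference was smaller than that of 6 h by 1.18 ± 0.39 (adjusted p = 0.0263). This change lost its call in 8 of 21 alternatives: without NP 6 h replicate 1 (0.78, adjusted p = 0.241), without NP 24 h replicate 2 or 3 or MCC CD69-hi 6 h replicate 2 or 24 h replicate 3, without NP 6 h and NP 24 h replicate 1, without the filter on low counts and with the compared groups alone (adjusted p = 0.0626 to 0.0893 in these 7).

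Klf7 (chr1:64029448-64122345, ENSMUSG00000025959), a broadly expressed activator, was 1.67-fold lower at 1 h and 5.67- and 4.41-fold lower later. NP libraries held 193, 117 and 148 CPM at 1 h, 96.8 and 108 at 6 h and 105, 90.6 and 88.7 at 24 h. MCC CD69-hi libraries held 104, 57.1 and 105, then 14, 18.5 and 21.4, and then 24.2, 19.5 and 20.5 CPM. The log2 difference went from −0.74 ± 0.19 (adjusted p = 0.00193) to −2.50 ± 0.21 and −2.14 ± 0.20 (adjusted p = 2.22e-15 and 2.02e-14), and its change from 1 to 6 h was −1.77 ± 0.28 (adjusted p = 1.19e-06). The 1 h call was lost without NP 1 h replicate 1 (−0.43, adjusted p = 0.12), without MCC CD69-hi 1 h replicate 2 (−0.46, adjusted p = 0.0812) and in a fit of the compared groups alone (−0.56, adjusted p = 0.0669).

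Klf4 (chr4:55527137-55532475, ENSMUSG00000003032), the activator known for restraining lymphocyte proliferation, fell between 1 and 6 h in NP and in MCC CD69-hi cells. In MCC CD69-lo the same interval gave −0.64 ± 0.56 (adjusted p = 0.492). At 1 h its NP libraries stood at 23.2, 22.4 and 20.6 CPM and its MCC CD69-hi libraries at 52.8, 21 and 38.7, which overlap. At 6 h they stood at 9.39 and 1.76 against 3.02, 1.95 and 3.88 CPM, and at 24 h at 4.22, 0 and 1.37 against 5.21, 1.53 and 3.54. The library at 0 allows up to 3 counts. None of the differences passed: 0.82 ± 0.50 (adjusted p = 0.231), −0.93 ± 0.67 (adjusted p = 0.274) and 0.93 ± 0.70 (adjusted p = 0.261). The middle value turned to 0.72 without NP 6 h replicate 1, and the 1 h value to −0.44 with the summed B-cell genes as a covariate. Other settings gave calls. At 24 h Klf4 was higher without NP 24 h replicate 1 (2.18, adjusted p = 0.0308), without NP 6 h and NP 24 h replicate 1 (2.16, adjusted p = 0.019) and with the B-cell covariate (1.73, adjusted p = 0.0421). At 1 h it was higher with the compared groups alone (1.01, adjusted p = 0.013) and with a block by plate round within time, the round being read from the wells in the sample titles (0.81, adjusted p = 0.0407), and with the same block it was lower at 6 h (−1.09, adjusted p = 0.0492). Within MCC CD69-hi, Klf4 fell by 3.72 ± 0.59 from 1 to 6 h (adjusted p = 2.31e-06).

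Klf3 (chr5:64803521-64832901, ENSMUSG00000029178), the CtBP-binding repressor, was lowest at 6 h. NP libraries held 615, 574 and 495 CPM at 1 h, 565 and 543 at 6 h and 419, 464 and 425 at 24 h. MCC CD69-hi libraries held 137, 76.9 and 102 CPM at 1 h, 41.9, 23.5 and 36.8 at 6 h and 66.6, 66.7 and 60.7 at 24 h. The 24 h libraries all lay above those of 6 h. The log2 differences were −2.38 ± 0.20, −4.03 ± 0.22 and −2.75 ± 0.20 (adjusted p = 3.2e-14, 5.78e-23 and 2.24e-18), or 5.21-, 16.3- and 6.74-fold. The difference deepened by −1.65 ± 0.29 from 1 to 6 h (adjusted p = 5.08e-06) and narrowed by 1.27 ± 0.28 from 6 to 24 h (adjusted p = 0.000503).

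Klf13 (chr7:63886351-63938915, ENSMUSG00000052040), a Sin3A-linked factor, split late from NP. At 1 h its NP libraries held 581, 570 and 451 CPM and its MCC CD69-hi libraries 396, 315 and 373, a difference of −0.56 ± 0.16 (adjusted p = 0.00466). At 6 h the values were 890 and 817 against 161, 148 and 155 CPM, and at 24 h 898, 721 and 846 against 153, 149 and 144. The stimulated libraries of both later times lay between 144 and 161 CPM, 5.51- and 5.52-fold under NP: the differences were −2.46 ± 0.17 and −2.47 ± 0.16 (adjusted p = 1.36e-18 and 5.79e-20). The change from 1 to 6 h was −1.90 ± 0.23 (adjusted p = 1.51e-09). The small 1 h difference lost its call without NP 1 h replicate 1 (adjusted p = 0.104) or replicate 2 (0.0831), without MCC CD69-hi 1 h replicate 2 (0.107) or replicate 3 (0.0538), with the B-cell (0.108) or myeloid (0.0614) genes as a covariate, and in a fit of the compared groups alone (0.0649).

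Klf10 (chr15:38291464-38300711, ENSMUSG00000037465), the TGF-beta-inducible early gene, was the one member that rose. NP libraries held 17.4, 12.8 and 10.1 CPM at 1 h, 7.90 and 4.75 at 6 h and 6.03, 6.02 and 4.10 at 24 h. MCC CD69-hi libraries held 119, 118 and 90.6 CPM at 1 h, 31.8, 49.1 and 36 at 6 h and 8.31, 13 and 12.4 at 24 h. The stimulated level was thus highest at 1 h and came down at each later time. The fold over NP was 8.01, 6.13 and 2.10 (log2 3.0 ± 0.37, 2.62 ± 0.44 and 1.07 ± 0.40, adjusted p = 1.6e-08, 2.72e-06 and 0.0213). At 24 h the call was lost without MCC CD69-hi replicate 2 (adjusted p = 0.0796) or replicate 3 (0.0642), without NP replicate 3 (0.098), and with the B-cell (log2 0.68, adjusted p = 0.185) or myeloid (0.101) genes as a covariate.

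Whether reads were counted by strand is not given in the sources used here, so reads of overlapping genes cannot be told apart. In the RefSeq annotation of mm10, Klf3 overlaps Gm38457 and Gm31684, Klf7 overlaps Mir6899, Gm13748 and Gm35880, Klf10 overlaps Gm35248, and Klf13 overlaps Gm27252 and E030018B13Rik. No overlapping gene is annotated for Klf2, Klf4 or Klf6.

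**Figure D2:**
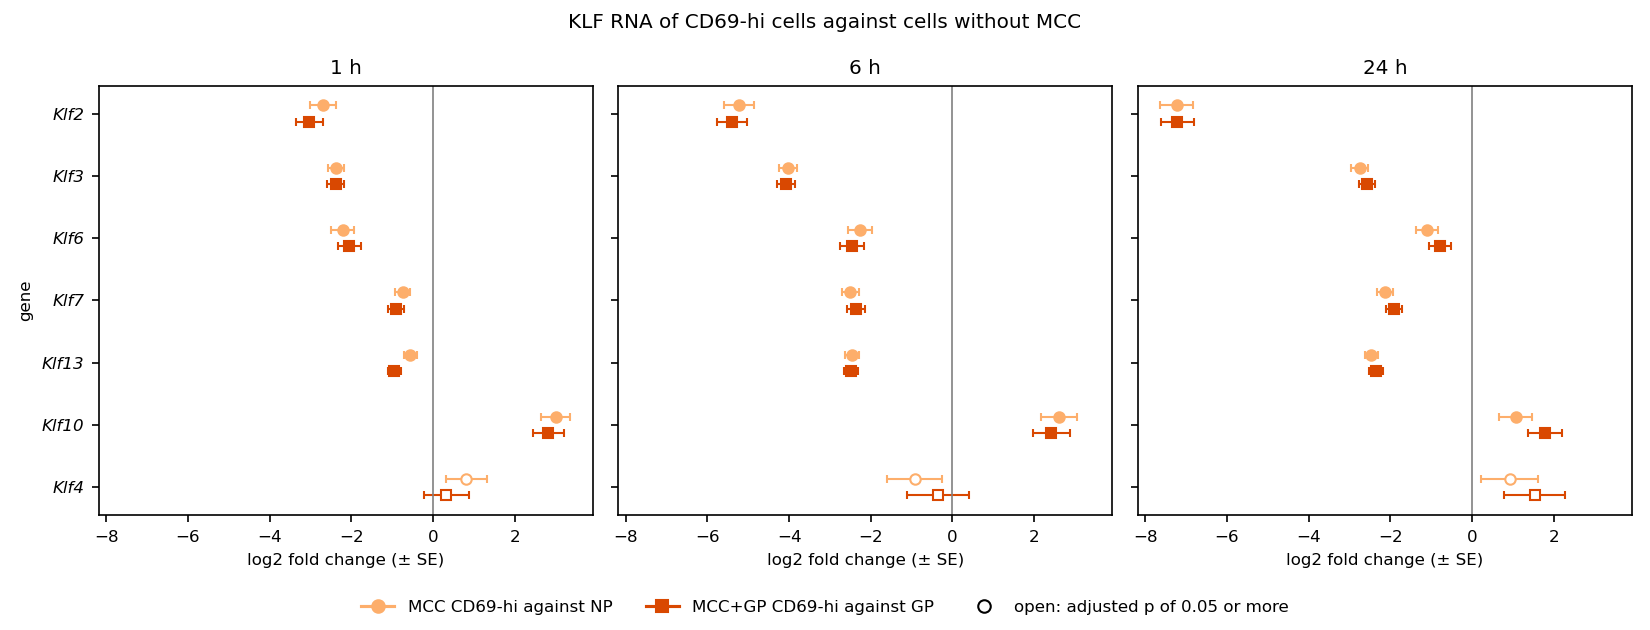
Log2 fold change ± SE (x axis) of each KLF gene at 1, 6 and 24 h (panels) in MCC CD69-hi against NP (circles) and in MCC+GP CD69-hi against GP (squares), with open symbols for an adjusted p of 0.05 or more. Klf2 lies at −7.23 and −7.21 at 24 h, and Klf3, Klf6, Klf7 and Klf10 lie nearer to 0 at 24 h than at 6 h. Klf10 lies above 0 at each time, and the open symbols are those of Klf4.

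The same question was put to libraries that share no sample with the first comparison, MCC+GP CD69-hi against GP. Again 6 of 7 members passed at each time, 18 of 21 in all, where 33.8%, 46.7% and 58.5% of all genes did. Those rising were 13.7%, 23.5% and 29.5% of all genes and those falling 20.1%, 23.2% and 29%, and of the members 1 rose and 5 fell each time. Klf2 fell (log2 −3.03 ± 0.33, −5.40 ± 0.37 and −7.21 ± 0.40, adjusted p = 4.44e-09, 4.88e-15 and 8.78e-18). Klf3 fell by the most at 6 h (−2.39 ± 0.21, −4.08 ± 0.22 and −2.58 ± 0.20). Klf6 fell at each time (−2.05 ± 0.28, −2.46 ± 0.30 and −0.78 ± 0.26, adjusted p = 0.0108 at 24 h), and the last lost its call with the B-cell genes as a covariate (−0.30, adjusted p = 0.359). Klf7 fell (−0.91 ± 0.20, −2.36 ± 0.22 and −1.91 ± 0.20), and so did Klf13 (−0.94 ± 0.16, −2.49 ± 0.17 and −2.35 ± 0.16). In a fit of the compared groups alone Klf7 missed the threshold at 1 h (adjusted p = 0.0654). Klf10 rose by 2.82 ± 0.38, 2.42 ± 0.45 and 1.79 ± 0.42 (adjusted p = 1.26e-07, 1.49e-05 and 0.000288). Klf4 was not called, with differences of 0.32, −0.35 and 1.54 (adjusted p = 0.68, 0.757 and 0.0751).

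Within MCC CD69-hi cells the members did not follow one course. From 1 to 6 h, 6 of 7 fell, where 40.6% of all genes passed: Klf4 (−3.72), Klf2 (−2.86), Klf7 (−2.34), Klf3 (−1.67), Klf10 (−1.47) and Klf13 (−1.23). Klf6 alone was not called, at −0.52 ± 0.27 (adjusted p = 0.128). From 6 to 24 h, where 38.2% of genes passed, Klf2 fell again by 2.05 ± 0.37 (adjusted p = 3.23e-05) and Klf10 by 1.80 ± 0.35 (adjusted p = 6.38e-05). Klf3 rose over the same interval by 0.93 ± 0.20 (adjusted p = 0.00012) and Klf6 by 0.67 ± 0.27 (adjusted p = 0.0433). The Klf6 rise was the least firm, with an adjusted p of up to 0.238 among its alternatives. Klf13 (−0.06 ± 0.16), Klf7 (0.25 ± 0.20) and Klf4 (0.23 ± 0.63) were not called.

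The summed level of the 7 genes dropped with them. Per length, the sum in NP was 1791 ± 225 at 1 h, 1927 ± 30.8 at 6 h and 1682 ± 131 at 24 h. In MCC CD69-hi it was 595 ± 133, 185 ± 20.5 and 207 ± 6.84, and the libraries of both groups did not overlap at any time. MCC CD69-lo lay between, at means of 1093, 1316 and 1033. The make-up of the sum changed as well: Klf2 provided 42%, 35% and 38% of it in NP but 19.5%, 8.13% and 1.81% in MCC CD69-hi. Klf13 became the largest share, with 38.5%, 47% and 41.1% against 17.7%, 29.5% and 31.6% in NP. Klf6 went from 8.84% in NP to 29.8% in MCC CD69-hi at 24 h, and Klf10 from 0.303% to 8.25% at 1 h. At 24 h the stimulated order per length was therefore Klf13 (84.8), Klf6 (61.7), Klf3 (41.3) and Klf7 (7.94), each apart from the next, with Klf10 (4.43), Klf2 (3.73) and Klf4 (2.78) overlapping.

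**Figure D3:**
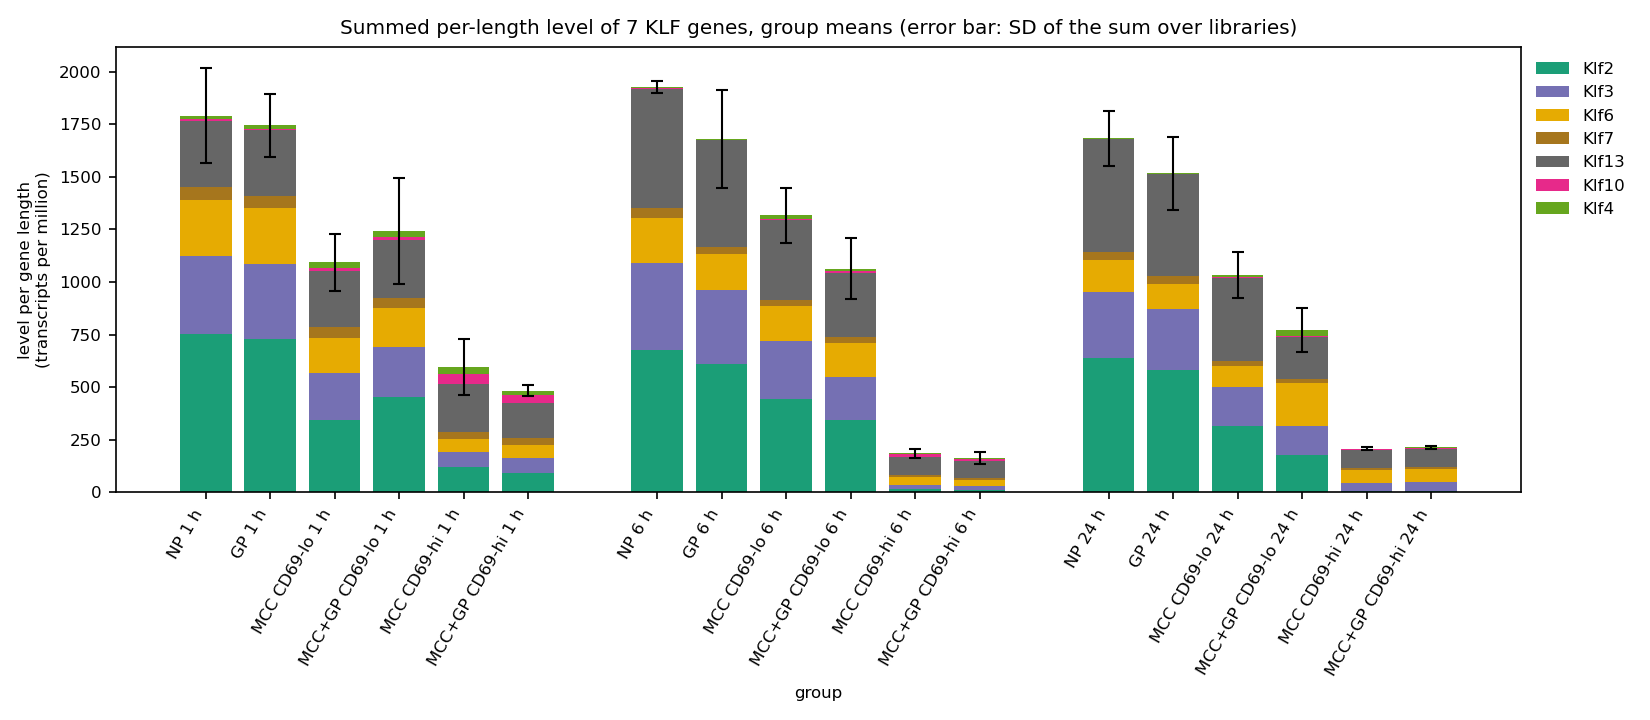
Summed length-corrected level (TPM, y axis) of the 7 KLF genes in each group, as stacked group means of each gene, with error bars for the SD of the sum over libraries. The NP bars stand at 1791, 1927 and 1682 and the MCC CD69-hi bars at 595, 185 and 207, with Klf2 the largest part of the former and Klf13 of the latter.

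The CD69-lo fraction of MCC-exposed cells asks whether KLF genes also differ in cells that stayed low for the sorting marker. In MCC CD69-lo against NP 9 of 21 tests passed, 3 of 7 at 1 h, 1 of 7 at 6 h and 5 of 7 at 24 h, where 3.15%, 2.12% and 18.5% of all genes did. Of the members 1 rose each time, beside 2.72%, 2.12% and 9.83% of all genes. At 1, 6 and 24 h 2, 0 and 4 fell, beside 0.436%, 0% and 8.65%. The NP libraries are the same as those set against MCC CD69-hi, so the values stand side by side and are not independent. The summed B-cell genes were higher in this fraction than in NP at each time (590 to 2328 against 186 to 271 CPM at 1 h, 378 to 823 against 152 to 269 at 24 h and 380 to 648 against 144 to 271 at 6 h). Where a fit with their sum as a covariate changed a call or a sign in this comparison, its value is given beside the result.

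Klf2 in MCC CD69-lo stood at 512, 729 and 263 CPM at 1 h, 734 and 644 at 6 h and 435, 529 and 189 at 24 h. All were below the NP libraries of their time, and replicate 3 was far below the others at 1 and 24 h. The log2 differences were −1.15 ± 0.29 (adjusted p = 0.0201), −0.36 ± 0.36 (adjusted p = 0.892) and −1.17 ± 0.30 (adjusted p = 0.00502). The 1 h call was lost without MCC CD69-lo 1 h replicate 3 (−0.84, adjusted p = 0.214) or replicate 1 (0.0805), without NP 1 h replicate 1 (0.0993) or replicate 2 (0.0688), with the B-cell covariate (−0.97, adjusted p = 0.249) and with only the compared groups (0.113).

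Klf3 followed a like course at 293, 336 and 349 CPM, then 448 and 408, and then 198, 249 and 235. It fell by 0.78 ± 0.18 at 1 h (adjusted p = 0.00651) and 0.93 ± 0.19 at 24 h (adjusted p = 0.000222), and was at −0.37 ± 0.22 at 6 h (adjusted p = 0.705). Without NP 1 h replicate 1 or MCC CD69-lo 1 h replicate 1 the 1 h result missed the threshold (adjusted p = 0.0693 and 0.0703). At 24 h Klf7 (37.8, 55.4 and 63.1 CPM) and Klf13 (589, 571 and 471 CPM) were also below NP without overlap, by 0.83 ± 0.20 (adjusted p = 0.00174) and 0.60 ± 0.16 (adjusted p = 0.00418). Klf6 was not called at any time: its differences were −0.72 (adjusted p = 0.177), −0.14 (0.985) and −0.73 (0.0518). These depend on the setting. At 1 h Klf6 was called lower with the B-cell covariate (−1.21, adjusted p = 0.00559) and with a replicate block by plate round (−0.76, adjusted p = 0.0497). At 24 h it was called lower with the B-cell (−1.03, adjusted p = 0.00273) or myeloid (−0.95, 0.0291) covariate, with the block over all times (−0.76, 0.0194) or within time (−0.78, 0.0467), and without NP 24 h replicate 2 (−0.87, 0.0461). At 6 h its sign turned without NP 6 h replicate 1 (0.20) or MCC CD69-lo 6 h replicate 2 (0.02).

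Klf10 was above NP in MCC CD69-lo at 1 h, with 59.3, 27 and 32.1 CPM, and at 6 h, with 13.6 and 28.5. The differences were 1.53 ± 0.36 (adjusted p = 0.0071) and 1.73 ± 0.47 (adjusted p = 0.0323). At 24 h the libraries held 15.1, 2.27 and 4.58 CPM and overlapped NP (0.09 ± 0.54, adjusted p = 0.94). Both calls were lost without some single libraries, although 14 of 16 alternatives kept that of 1 h. The 1 h value was 1.15 without MCC CD69-lo 1 h replicate 1 (adjusted p = 0.093) and missed the threshold without NP 1 h replicate 3 (adjusted p = 0.0726). The 6 h value was 1.10 without MCC CD69-lo 6 h replicate 2 (adjusted p = 0.745), and also missed it without NP 6 h replicate 1 (0.108) or replicate 2 (0.634) and in a fit of the compared groups alone (0.0569).

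Klf4 rose at 24 h, with 4.72, 5.18 and 14.8 CPM on 5, 16 and 29 counts against 4.22, 0 and 1.37 in NP (log2 2.19 ± 0.73, adjusted p = 0.0327). The highest value is that of replicate 3, from plate round 4, which holds no NP library. The call was lost without MCC CD69-lo 24 h replicate 3 (1.47, adjusted p = 0.291), without NP 24 h replicate 2 (0.126) or replicate 3 (0.1), with the B-cell (0.132) or myeloid (0.146) genes as a covariate, in a fit of the compared groups alone (0.146) and without the filter on low counts (0.0752). At 1 h the Klf4 libraries (36.5, 28.2 and 23.8 CPM) also lay above the NP libraries, but the difference of 0.41 ± 0.49 did not pass (adjusted p = 0.856) and was −0.40 with the B-cell covariate. At 6 h they held 28.9 and 8.85 CPM against 9.39 and 1.76, which overlap (1.74 ± 0.66, adjusted p = 0.277). That value was called with the block within time (1.74, adjusted p = 0.00478) and without NP 6 h and NP 24 h replicate 1 (3.33, adjusted p = 0.041).

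**Figure D4:**
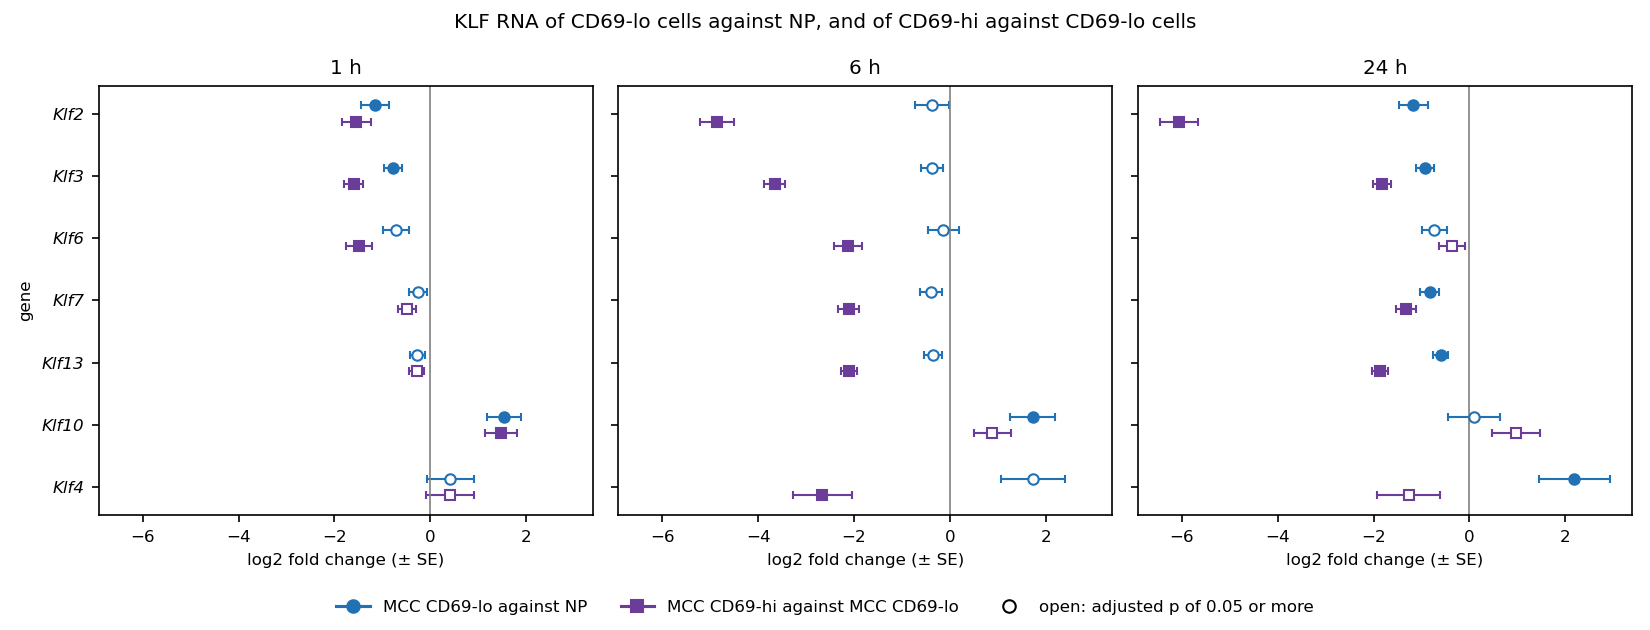
Log2 fold change ± SE (x axis) of each KLF gene at 1, 6 and 24 h (panels) in MCC CD69-lo against NP (circles) and in MCC CD69-hi against MCC CD69-lo (squares), with open symbols for an adjusted p of 0.05 or more. Klf2 lies at −1.15, −0.36 and −1.17 for CD69-lo against NP and at −1.54, −4.86 and −6.06 for CD69-hi against CD69-lo.

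Set directly against MCC CD69-lo, MCC CD69-hi cells differed in 14 of 21 tests, 4 of 7 at 1 h, 6 of 7 at 6 h and 4 of 7 at 24 h. The share of all genes was 12.5%, 42.4% and 61.7%, of which 3.46, 19.9 and 29.1 percentage points rose and 9.06, 22.5 and 32.6 fell. Among the members 1, 0 and 0 rose and 3, 6 and 4 fell. At 1 h Klf2, Klf3 and Klf6 were lower in CD69-hi (log2 −1.54 ± 0.31, −1.60 ± 0.20 and −1.49 ± 0.27, adjusted p = 0.000503, 2.65e-08 and 0.000165). In a fit of the compared groups alone Klf2 missed the threshold (adjusted p = 0.114). Klf10 was higher by 1.47 ± 0.34 (adjusted p = 0.00224). Klf10 was also above CD69-lo at 6 h without overlap, by 0.88 ± 0.39 (adjusted p = 0.0623), which did not pass here but did in 8 of 15 alternatives, with both blocks and the B-cell covariate among them (adjusted p down to 0.00425). At 6 h the 6 other members fell, Klf2 by 28.99-fold (log2 −4.86 ± 0.36) and Klf3 by 12.59-fold (log2 −3.65 ± 0.22). Klf4 was among them, with 3.02, 1.95 and 3.88 CPM in CD69-hi against 28.9 and 8.85 in CD69-lo (−2.67 ± 0.61, adjusted p = 0.000443), a call that was lost without MCC CD69-lo 6 h replicate 1 (−1.58, adjusted p = 0.0983). At 24 h Klf2 was 66.9-fold lower (−6.06 ± 0.39, adjusted p = 6.48e-16), and Klf3, Klf7 and Klf13 were lower by 3.54-, 2.49- and 3.65-fold. Klf6 did not pass at 24 h, at −0.37 with an interval of −0.89 to 0.16. It was called lower with RLE size factors (−0.60, adjusted p = 0.0481), by DESeq2 (−0.60, 0.0361) and in a fit of the compared groups alone (−0.63, 0.0106), but turned to 0.39 with the B-cell covariate and 0.07 with the myeloid one. Klf4, at −1.27 ± 0.66 at 24 h (adjusted p = 0.0935), was called lower in 5 alternatives and turned to 0.10 with the B-cell covariate.

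Over time, MCC CD69-lo passed in 2 of 7 members from 1 to 6 h and 3 of 7 from 6 to 24 h, against 16.8% and 5.95% of all genes. Klf13 rose by 0.59 ± 0.17 (adjusted p = 0.00981) and Klf7 fell by 0.71 ± 0.21 (adjusted p = 0.0114) in the earlier interval. In the later one Klf3 fell by 0.90 ± 0.21 (adjusted p = 0.00322), Klf6 by 1.10 ± 0.29 (0.018) and Klf10 by 1.89 ± 0.51 (0.0172). The Klf13 rise lost its call with the replicate block by plate round (0.41, adjusted p = 0.0642), with the compared groups alone (0.0632) and without MCC CD69-lo 1 h replicate 3 (0.0854). All 5 rest on the 2 libraries of 6 h: without replicate 1 of that group 1 of the 5 calls was left, and without replicate 2 there were 2. The Klf6 call was also lost without MCC CD69-lo 24 h replicate 1 or replicate 2. That of Klf10 was also lost without MCC CD69-lo 24 h replicate 2 or replicate 3 and with the compared groups alone.

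In MCC+GP CD69-lo against GP, which shares no library with MCC CD69-lo against NP, 9 of 21 tests passed, where 2.18%, 10.3% and 33.7% of all genes did at the 3 times. Of the members 1 rose each time and 0, 2 and 4 fell, beside 1.99%, 7.41% and 15.3% of all genes rising and 0.186%, 2.92% and 18.4% falling. Klf10 rose at 1 h by 1.48 ± 0.36 (adjusted p = 0.0141), with 32.5, 45.7 and 25.1 CPM against 11.8, 14.5 and 10.5 in GP, and at 6 h by 2.2 ± 0.45 (adjusted p = 0.000697). Its 1 h call was lost without GP 1 h replicate 1 (adjusted p = 0.0856) or replicate 3 (0.0904) or without MCC+GP CD69-lo 1 h replicate 2 (0.0679). At 6 h Klf3 fell by 0.82 ± 0.20 (adjusted p = 0.00421) and Klf13 by 0.75 ± 0.17 (adjusted p = 0.00155), both missing the threshold with the myeloid covariate (adjusted p = 0.0505 and 0.0576) and Klf3 also without GP 6 h replicate 2 (0.0628). Klf2 was at 627, 433 and 420 CPM against 854 and 921 in GP, without overlap, but at −0.85 ± 0.32 it did not pass (adjusted p = 0.0906).

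The libraries of MCC+GP CD69-lo at 24 h held 30, 11 and 68 counts of Klf2, which is 95.8, 182 and 177 CPM. Klf2 fell by 2.5 ± 0.38 (adjusted p = 2.45e-06), Klf3 by 1.84 ± 0.25, Klf7 by 2.00 ± 0.37 and Klf13 by 2.02 ± 0.19 against GP. Klf4 rose by 4.55 ± 0.99 (adjusted p = 0.000411) on 14, 0 and 7 counts (44.7, 0 and 18.3 CPM), so its libraries overlapped the GP range of 0 to 2.08 CPM. The Klf4 call was lost without replicate 1 (3.76, adjusted p = 0.0549) and with the myeloid covariate (3.02, adjusted p = 0.101). Klf6 did not pass, at 543, 232 and 542 CPM against 389, 406 and 381 (0.29 ± 0.29, adjusted p = 0.463). In this group the myeloid and dendritic genes summed to 655 to 1712 CPM with 3 of 16 at 0, and the B-cell genes to 1473 to 1860 with none at 0. The corresponding sums in MCC CD69-lo at 24 h were 188 to 311 and 378 to 823 CPM.

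The series also asks what GP adds. Without MCC, no member passed in GP against NP in any of 21 tests, with 0 unadjusted p-values under 0.05 in edgeR and 0 in DESeq2, where 0%, 0% and 0.00581% of all genes passed at 1, 6 and 24 h. Klf2 held 1143, 1051 and 983 CPM in GP at 1 h, 854 and 921 at 6 h and 805, 809 and 834 at 24 h. Its differences from NP were −0.07 (95% interval −0.64 to 0.50), 0.0008 (−0.70 to 0.70) and −0.08 (−0.65 to 0.49), and the libraries of 24 h did not overlap those of NP. Intervals were tightest for Klf13, at −0.33 to 0.27, −0.38 to 0.35 and −0.38 to 0.22, and widest for Klf4, up to −2.29 to 1.00 at 24 h. The intervals give the range of changes compatible with these libraries and are not limits of detection. All differences but 1 lay under 0, from −0.78 for Klf4 at 6 h upwards, and the exception was Klf2 at 6 h. These signs rest in part on NP replicate 1 of 6 and 24 h: without both libraries Klf4 was at 0.86 at 6 h and 0.61 at 24 h, Klf6 at 0.13 and Klf10 at 0.27 at 6 h, and no member was called.

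In CD69-hi cells, MCC+GP against MCC gave 0 of 21 calls, with 0.68%, 0% and 0% of all genes called. DESeq2 also gave 0, and each tool had 1 unadjusted p under 0.05. In edgeR this was Klf13 at 1 h, with 332, 232 and 254 CPM in MCC+GP CD69-hi against 396, 315 and 373 in MCC CD69-hi, which overlap (−0.41 ± 0.16, adjusted p = 0.19). At 1, 6 and 24 h the intervals for Klf2 were −1.04 to 0.22, −0.83 to 0.47 and −0.89 to 0.76. For Klf3 they were −0.49 to 0.33, −0.52 to 0.27 and −0.29 to 0.46. The GP difference in CD69-hi cells minus that without MCC, averaged over times, was −0.17 to 0.23 over the 7 members, with 0 calls, 0 unadjusted p under 0.05 in edgeR or DESeq2, and 0% of all genes called. Without NP 6 h and NP 24 h replicate 1 the range was −0.73, for Klf4, to 0.08, again with 0 calls.

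In CD69-lo cells the only calls for added GP in edgeR came at 24 h, in the 3 shallow libraries: 4 of 7 members, all falling, against 19.3% of all genes there (7.37% rising and 12% falling), and 0 of 14 tests with 0% of genes at 1 and 6 h. Those 14 tests had 2 unadjusted p under 0.05, both at 6 h, for Klf3 and Klf13, and DESeq2 called none of them. At 24 h Klf13 held 163, 215 and 211 CPM (51, 13 and 81 counts) against 589, 571 and 471 in MCC CD69-lo, a difference of −1.50 ± 0.19 (adjusted p = 5.46e-08). Klf3 held 137, 133 and 88.7 CPM against 198, 249 and 235 (−1.0 ± 0.25, adjusted p = 0.00338), and Klf2 differed by −1.41 ± 0.38 (adjusted p = 0.00757). Klf7 at 12.8, 49.7 and 23.5 CPM, on 4, 3 and 9 counts, overlapped 37.8, 55.4 and 63.1 (−1.32 ± 0.39, adjusted p = 0.0127). Of these 4 calls 2 were left without MCC+GP CD69-lo 24 h replicate 1 or replicate 3, and 1 when only the compared groups entered the fit. The T-cell genes summed to 935 to 1447 CPM in this group and 1913 to 2270 in MCC CD69-lo, next to the B-cell and myeloid sums above. With a covariate for B-cell or myeloid genes the number of calls was 4 in each case. DESeq2 called 6 members at 24 h, adding Klf4 (1.86, adjusted p = 0.0479) and Klf6 (0.97, adjusted p = 0.00469), which edgeR gave at 1.71 (0.161) and 0.78 (0.0566).

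**Figure D5:**
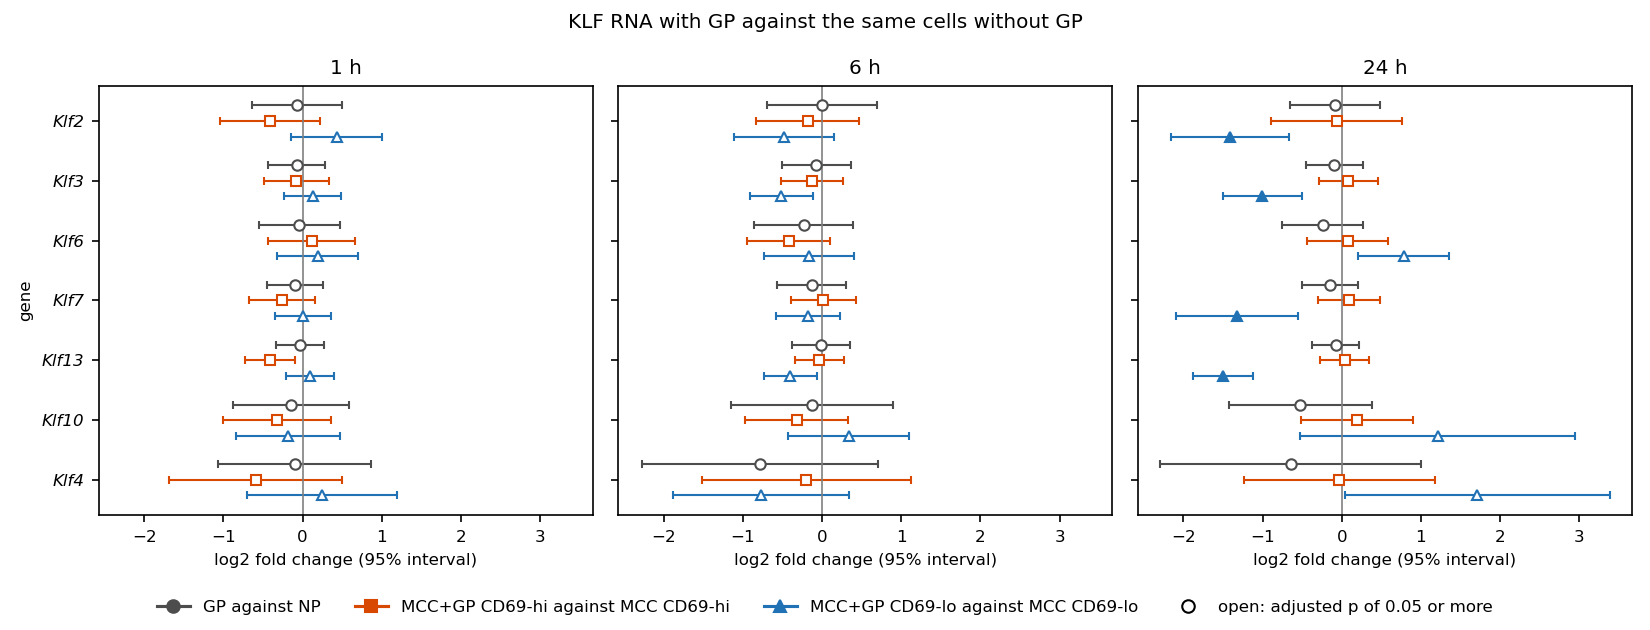
Log2 fold change with its 95% interval (x axis) of each KLF gene at 1, 6 and 24 h (panels) for GP against NP (circles), MCC+GP against MCC in CD69-hi cells (squares) and the same in CD69-lo cells (triangles), with open symbols for an adjusted p of 0.05 or more. The filled symbols are those of Klf2, Klf3, Klf7 and Klf13 in CD69-lo cells at 24 h, at −1.41, −1.0, −1.32 and −1.50.

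The gene lists that follow are to be read against the 29.4%, 46.7% and 57.8% of all genes called in MCC CD69-hi against NP at 1, 6 and 24 h. The lists were chosen with earlier results of these data known, so their counts and medians are a description only. The table holds 10 other Klf genes, of which 6 passed the filter on low counts. Among these, Klf5 and Klf12 held only 36 and 69 counts over all libraries. Their highest group means were those of the shallow MCC+GP CD69-lo group at 24 h (35.3 and 11 CPM on 8 and 2 counts). The numbers of calls below thus include genes near the floor. In MCC CD69-hi against NP 3 rose and 0 fell at 1 h, 3 rose and 1 fell at 6 h, and 1 rose and 1 fell at 24 h, a smaller share than that of all genes at this last time. Klf16, related to Klf13 and Klf10 by its Sin3A-binding repression, went up at each time, from means of 39.2, 48.6 and 43.3 CPM to 114, 125 and 126 (log2 1.53, 1.36 and 1.54, adjusted p = 2.51e-08, 6.01e-07 and 6.71e-10). Klf8 rose at 1 h (1.10 to 5.40 CPM on 18 and 30 counts per group, adjusted p = 0.00726) and Klf9 at 6 h (3.24 to 14.7 CPM, adjusted p = 3.76e-05). Klf11 fell by 1.17 at 6 h and 1.23 at 24 h (adjusted p = 0.0334 and 0.0115), with overlapping libraries at 6 h. Of the Sp genes, whose products bind the same GC-rich elements, 6 of 9 were tested, with 0 rising and 2 falling, 1 and 2, and 0 and 4 at the 3 times. Sp3 (−0.95, −1.08 and −0.94) and Sp4 (−0.38, −0.93 and −2.17) fell, while Sp1 rose by 0.48 at 6 h (adjusted p = 0.0229).

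Receptors of homing and survival that are linked in the literature to KLF2 (10 genes, all tested) fell in 7, 7 and 6 cases and rose in 3, 2 and 2. Their median log2 change was −1.12, −4.08 and −3.62, beside −0.05, 0 and −0.14 over all genes. S1pr1, the receptor that lets T cells leave lymph nodes, went from means of 1258, 918 and 862 CPM in NP to 146, 13.2 and 6.63 (log2 −3.07, −6.13 and −7.01, adjusted p = 1.3e-16, 5.69e-27 and 5.58e-29). Il7r, the survival receptor for IL-7, fell as well (−3.17, −5.28 and −6.60). So did the integrin gene Itgb7 at 6 h (−5.29) and S1pr4 at 1 h (−3.33). Among those that rose were Cxcr3, a chemokine receptor of effector cells (0.17 to 36.9 CPM at 6 h, log2 7.56) and Plxnd1 at each time (1.62, 1.83 and 1.19). In MCC CD69-lo against NP the same 10 genes gave 0 rising and 2 falling, 1 and 0, and 2 and 4. In GP against NP they gave none.

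Quiescence factors (14 tested) rose and fell in 2 and 9, 1 and 7, and 3 and 8 cases, with medians of −0.60, −0.59 and −1.67. Cdkn1b, the cell-cycle inhibitor p27, fell at each time (log2 −2.94, −4.37 and −3.96), as did Tcf7, a naive-cell transcription factor (−1.61, −4.25 and −2.6). Cdkn1a (p21) went the other way, at 3.93, 4.44 and 4.12. Known regulators of KLF genes and proteins (16 tested) rose and fell in 1 and 11, 3 and 9, and 3 and 9 cases. Hdac5, a repressor of MEF2 factors, fell (−1.38, −2.68 and −1.79), and so did the ubiquitin ligase Smurf1, which targets KLF2 protein (−1.14, −1.43 and −2.43). Foxo3 fell by 1.35 at 1 h. Map3k3, an upstream kinase of the ERK5 pathway, fell by 2.69 at 6 h. Mef2c rose at 1 h from 19.1 to 164 CPM (log2 3.12, adjusted p = 9.67e-05). Mef2c is also expressed by B cells, whose marker genes were 1205 to 2096 CPM in these libraries against 186 to 271 in NP, and their part in the result was not tested for this gene.

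The corepressors and coactivators that KLF proteins recruit (14 tested) went in both directions, 2 rising and 3 falling, 5 and 6, and 6 and 5, with medians of −0.29, −0.12 and 0.10. Kat2b, an acetyltransferase that binds KLF2, fell (−1.60, −4.24 and −2.77). The histone deacetylase gene Hdac2 rose by 1.44 at 6 h and 1.56 at 24 h. Of the TGF-beta pathway genes (14 of 15 tested) 3 rose and 5 fell, 6 and 6, and 4 and 8. The ligand gene Tgfb1 rose by 1.41, 1.48 and 0.87, the receptor gene Tgfbr2 fell (−1.43, −2.2 and −2.67), and the inhibitory Smad7 fell (−1.47, −1.75 and −2.78). All of these passed the threshold. None of the Sp, trafficking, quiescence, regulator, cofactor or TGF-beta genes was called in GP against NP.

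Members were also compared in pattern over the 18 group means of log2 CPM, as a description, since groups share depth, time and the RNA of other cells. Klf2 and Klf13 (Pearson r = 0.920), Klf3 and Klf13 (0.928), Klf3 and Klf6 (0.931) and Klf2 and Klf3 (0.912) ran close, whereas Klf10 was unlike Klf2 (−0.244) and nearer to Klf4 (0.616). The genes nearest to Klf2 were S1pr1 and Tsc22d3 (each 0.989) and Cyp2d22. Those nearest to Klf3 were Ube2h (0.991), Atxn7l1 (0.988) and Cdkn1b (0.987), and those nearest to Klf13 were A630023P12Rik (0.987), Mturn (0.986) and Gm11346 (0.984). Klf6 was nearest to Rassf3 (0.971), Rhobtb2 and Spata13 (0.938), and Klf7 to Jakmip1, Klhl24 (0.979) and Rb1cc1 (0.978). Klf10 was nearest to Hspa4l (0.979), Plekho2 (0.960) and Lrrfip1 (0.957), and Klf4, the member with the loosest neighbours, to Gla (0.934), Lmna (0.926) and Arpc3 (0.915).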

How the data were processed

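The submitters' processing notes name bcl2fastq 2.20, STAR 2.6.1c, HTSeq 0.9.1 and mm10. Every test used the raw count of each gene as deposited by the authors (34923 features, 38 with a repeated symbol), and 0 of the sample columns went unused. The deposited TPM columns sum to 9986 to 9996 and are proportional to counts over length within a library (coefficient of variation at most 0.209%). They were rescaled to 1000000 for levels between genes. Loci come from the RefSeq annotation of GRCm38.p6 (mm10). No sequences are printed.

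edgeR 4.0.16 (limma 3.58.1, R 4.3.3) was used with TMM size factors, filterByExpr by group (17211 genes), and a robust quasi-likelihood fit of all 51 libraries with 1 coefficient per group. Tests were two-sided, adjusted by Benjamini-Hochberg over all 17211 genes at a false discovery rate of 0.05. The SE is the log2 fold change over the root of F, and 95% intervals are 1.96 SE to each side. On simulated counts for MCC CD69-hi against NP at 6 h (17211 genes, 200 changed) the procedure recovered 79% of 2-fold and 96% of 4-fold changes and called 9 unchanged genes. The changed genes were drawn above a low CPM cut. All groups otherwise shared 1 mean profile, and the spread was the trended dispersion. In the data 46.7% of genes were called in this comparison, so these rates do not carry over to it.

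The members and the gene lists (other Klf, Sp, KLF2-linked trafficking, quiescence, KLF regulators, cofactors, TGF-beta, and markers of T cells, B cells, myeloid and dendritic cells, endothelium and stroma, CD8 T and NK cells) were chosen with earlier results of these data known. Named genes are the 7 members. Others come from the 3 strongest called genes of each list in each direction, among those with at least 5 CPM in a group. Some genes that this rule names are not reported here. Pattern neighbours are the 3 genes with the highest r among genes reaching 20 CPM, with a prior count of 2.

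Alternatives were RLE size factors, no filter, DESeq2 1.42.0, only the compared groups, a replicate block by plate round, each library left out, leaving out the 3 shallow libraries or NP 6 h and NP 24 h replicate 1, and the summed B-cell genes as a covariate. A block within time, a restriction to 1 and 6 h and a myeloid covariate were added after seeing the data.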

Additional observations from a re-analysis of the deposited data

Results flagged for a closer look

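For 5 members the size of the difference between MCC CD69-hi and NP changed with time by a test of the change itself (edgeR's quasi-likelihood test, adjusted over all genes). Of all genes tested, 29.9% passed for the change from 1 to 6 h and 22.9% for that from 6 to 24 h. Between 1 and 6 h the log2 difference moved by −2.53 for Klf2 (adjusted p = 2.94e-05), −1.65 for Klf3 (5.08e-06), −1.77 for Klf7 (1.19e-06) and −1.90 for Klf13 (1.51e-09). Between 6 and 24 h it moved by −2.01 for Klf2 (adjusted p = 0.00296), 1.27 for Klf3 (0.000503) and 1.18 for Klf6 (0.0263). The Klf6 value lost its call in 8 of 21 alternatives, with a value of 0.78 without NP 6 h replicate 1 (adjusted p = 0.241). Klf3 is thus listed in both intervals with opposite signs, Klf2 in both with the same sign. Klf10 missed the threshold from 6 to 24 h, at −1.54 (adjusted p = 0.0545). All 4 groups of 1 and 24 h hold 3 libraries, and NP at 6 h holds 2.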

How the results depend on the processing

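No member's call changed direction under any alternative. Over the fits that left out 1 library, 613 member results kept direction and side of the threshold, 57 lost the call, 5 gained one and 5 uncalled values changed sign. Over the other settings the numbers were 1053, 33, 31 and 9. This tally left out the comparisons that test added GP. Outside the contrasts of MCC CD69-hi, MCC CD69-lo and NP with each other within a time, it held only members called in the main fit. Calls gained there were therefore not counted. Calls in MCC CD69-hi against NP numbered 18, with 16 to 19 when a library was left out and 16 to 20 under other settings. For MCC CD69-lo against NP they were 9, 6 to 9 and 6 to 11, and for MCC CD69-hi against MCC CD69-lo 14, 13 to 15 and 14 to 17. In MCC+GP CD69-lo against GP the 9 calls became 14 with a replicate block by plate round within time and 4 with 1 and 6 h only. In MCC+GP CD69-lo against MCC CD69-lo the 4 calls became 1 with only the compared groups, 0 with 1 and 6 h only, and 2 to 5 with a library left out. Calls over time were 1 to 3 in NP and 1 to 5 in MCC CD69-lo with a library left out, and 3 in the latter with only the compared groups. The cause was not tested, apart from the smaller number of tests or libraries. A replicate block by plate round gave 18, 11 and 17 calls in the first 3 comparisons and 13 in MCC+GP CD69-lo against GP. The labels do not say that plate rounds pair samples. Deviations of libraries in 1 round and time had a median r of 0.343 over 110 pairs, against −0.136 over 253 pairs in different rounds.

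The values that changed sign all belong to members not called. With the B-cell covariate Klf4 was at −0.44 in MCC CD69-hi against NP at 1 h, −0.40 in MCC CD69-lo against NP at 1 h, −0.033 in MCC CD69-hi against MCC CD69-lo at 1 h (−0.14 with the myeloid covariate) and 0.10 at 24 h. Klf6 in the last comparison at 24 h was at 0.39, or 0.065 with the myeloid covariate. Without NP 6 h and NP 24 h replicate 1, Klf4 in MCC CD69-hi against NP at 6 h was at 0.69, Klf6 in MCC CD69-lo against NP at 6 h at 0.17 and Klf4 in GP against NP at 0.86 at 6 h and 0.61 at 24 h. With a library left out the values of Klf4 in MCC CD69-hi and Klf6 in MCC CD69-lo at 6 h ranged from −1.67 to 0.72 and from −0.44 to 0.20, and Klf10 in MCC CD69-lo against NP at 24 h from −0.72 to 0.70.

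RLE size factors moved the median over all genes by over 0.1 on the log2 scale in some comparisons, such as MCC CD69-hi against NP at 24 h (−0.29 against −0.14 with TMM). In that comparison at 1 h they gave 2555 genes rising and 2127 falling, against 2131 and 2922, and in MCC CD69-hi against MCC CD69-lo at 1 h 910 and 971 against 595 and 1560. In MCC+GP CD69-hi against GP at 1 h the split was 3247 and 2193 against 2357 and 3455. For MCC+GP CD69-lo at 24 h it was 3193 and 2105 against 2631 and 3174 beside GP, and 1739 and 1309 against 1268 and 2058 beside MCC CD69-lo. Depth limits MCC+GP CD69-lo at 24 h, where 1 library holds 29030 counts.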
